A study of Mus musculus with 8 samples.

Results

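Glycolysis enzymes and the glucose transporter Slc2a1 were followed in RNA of early large pre-B (early LPre-B) and small pre-B (sPre-B) cells with and without conditional deletion of Upf1. The 10 genes Slc2a1, Hk1, Hk2, Pfkl, Aldoa, Tpi1, Pgk1, Eno1, Pkm and Ldha were taken by name as carriers of glucose uptake, of steps of glycolysis and of lactate formation and by no threshold on their measured values. Earlier results of these data were known at that point. Their counts beside the shares over all genes below thus describe the set and are no independent test of it. Among the 27179 genes of the count table, 10 of 10 were found, and 10 of 10 were among the 17700 genes that passed the expression filter.

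Cells were sorted from the bone marrow of mice aged 8 to 16 weeks, of both sexes, and 8 libraries were made, 2 for each of 4 groups. Ctrl/Igh B1-8hi mice were Upf1 Flox/Flox with Mb1 +/+, and cKO/Igh B1-8hi mice were Upf1 Flox/Flox with Mb1 Cre/+. All 4 groups thus carried floxed Upf1 and Igh B1-8hi/+, a rearranged heavy chain knock-in on 1 allele, and Ctrl mice differed from cKO mice also in lacking Cre. Mb1-Cre sits in the Cd79a locus and is active in the B lineage, and its recombination removes exons 4 to 6 of Upf1, an RNA helicase of nonsense-mediated mRNA decay. Early LPre-B cells were sorted as large CD43+ CD2- cells and sPre-B cells as small CD43lo CD25+ CD2+ cells, both within B220+ sIgM- lineage-negative cells. Whether animals were pooled, and whether libraries with the same number came from the same animal, is not given in the sources used here, so that P values measure the spread between these libraries, of which a part may be technical.

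Libraries held between 68516857 and 160426338 counts. The 10 genes had between 252 counts (Hk2, cKO sPre-B replicate 1) and 61416 counts (Pkm, Ctrl early LPre-B replicate 1), far above the 3 counts taken as the smallest level that could be shown. B-lineage markers (7 genes) summed to 2862 and 2881 CPM (counts per 1000000, scaled with edgeR's TMM factors) in Ctrl and 1919 and 1981 in cKO early LPre-B libraries, and to 6054 and 6773 in Ctrl and 4421 and 4843 in cKO sPre-B libraries. Early LPre-B markers (6 genes, among them Igll1, Vpreb1 and Mki67) summed to 5352 and 5572 CPM in Ctrl and 3308 and 3469 in cKO early LPre-B libraries, against 377 to 777 in sPre-B libraries. Most of the sum in early LPre-B libraries was Mki67 (4460 and 4927 CPM in Ctrl, 2906 and 3071 in cKO). At this stage Dntt (272 and 240 CPM in Ctrl, 26.8 and 24.8 in cKO) and Kit (18.7 and 15.1, 3.84 and 2.08) were lower in cKO. Their Log2FC was -3.31 (SE 0.20, adjusted P = 3.79e-05) and -2.51 (SE 0.45, adjusted P = 0.00387). The other 4 markers did not pass the test between genotypes there. The sPre-B markers (Il2ra, Cd2, Rag1, Rag2 and Igkc) summed to 4472 and 4937 CPM in Ctrl and 3364 and 3597 in cKO sPre-B libraries, against 402 to 690 in early LPre-B libraries. In sPre-B libraries the lower sum in cKO came from Rag1 (3508 and 2964 CPM in Ctrl, 1497 and 1612 in cKO), while Igkc was higher in cKO (620 and 724 against 1106 and 1180 CPM) and Il2ra was at 476 and 479 against 481 and 532 CPM. The part of these markers in the differences between genotypes below was not tested. The Upf1 count, which takes in exons outside the deletion, was 213 to 237 CPM in Ctrl and 244 to 258 in cKO early LPre-B cells, and 186 to 198 and 282 to 293 in sPre-B cells, with a Log2FC of 0.59 between genotypes in sPre-B cells (SE 0.10, adjusted P = 0.00245), so that it does not check the cKO label. Cd79a, which has 1 allele fewer in cKO mice, was at 188 and 160 CPM in cKO and 640 and 543 in Ctrl early LPre-B libraries. There it was 3.40-fold lower in cKO (Log2FC -1.77, SE 0.16, adjusted P = 0.000157). In sPre-B libraries it was at 405 and 325 CPM in cKO and 1478 and 1602 in Ctrl. The part of the missing allele in these differences was not tested. The replicate 2 libraries of both Ctrl groups had at least 19733 counts over 4 Y-linked genes, against at most 34 in the other 6 libraries, so that the 2 replicates of each Ctrl group came from different animals. Xist had 304 and 151 counts in these Ctrl replicate 2 libraries and 290740 to 513937 in the other 6. Each Ctrl group thus held 1 library of either sex, while all 4 cKO libraries had the pattern of females. The part of sex in the differences between genotypes, also for the X-linked Pgk1, was not tested. A fit without both Ctrl replicate 2 libraries sets only libraries of the female pattern side by side.

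Markers of other cells also moved with the groups. The neutrophil and monocyte markers (9 genes) summed to 36.8 and 54.0 CPM in Ctrl and at most 31.6 in cKO early LPre-B libraries, 136 and 164 in Ctrl sPre-B and 45.0 and 118 in cKO sPre-B libraries. The dendritic markers (4 genes) reached 357 to 401 CPM in cKO sPre-B against 72.3 to 123 in Ctrl sPre-B libraries, nearly all of it Itgax, with Siglech at 0.936 CPM or less. Erythroid markers (6 genes) summed to 10.5 to 37.6 CPM, plasma cell markers (3 genes) to 35.6 to 109, megakaryocyte markers (3 genes) to 1.39 to 32.1, and T and NK markers (7 genes) to 1.32 to 2.66. No marker of these lists was at 0 in both libraries of a group. The part of these cells in the results below was not tested.

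Glycolysis turns glucose into pyruvate in the cytosol, with a net gain of ATP, and lactate dehydrogenase can turn pyruvate into lactate and so restore the NAD+ that an earlier step uses. Proliferating lymphocytes, large pre-B cells among them, are known for high glucose uptake and glycolysis, which also feed the synthesis of nucleotides and lipids, while resting small pre-B cells have a lower demand. Many genes of the pathway are known targets of the transcription factors MYC and HIF1A.

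Upstream regions of 4 of the genes are shown because these genes stood at the ends of the pattern described below, a choice made after their values were seen. Ldha, Pgk1 and Tpi1 fell most between stages in Ctrl cells, and Aldoa did not follow the others. Each sequence holds the 250 bases before an annotated start, 5′ to 3′ on the strand of the gene (RefSeq, GRCm38.p6, the build of mm10), and capitals mark each ACGTG, the core of the hypoxia response element, on either strand. Regions for 10 of 10 genes were matched by symbol. That of Ldha, of which 1 of 2 is shown, lies at chr7:46845554-46845803 (+), that of Pgk1 at chrX:106186850-106187099 (+), that of Tpi1 at chr6:124814159-124814408 (-) and that of Aldoa, of which 1 of 3 is shown, at chr7:126799255-126799504 (-).
Ldha: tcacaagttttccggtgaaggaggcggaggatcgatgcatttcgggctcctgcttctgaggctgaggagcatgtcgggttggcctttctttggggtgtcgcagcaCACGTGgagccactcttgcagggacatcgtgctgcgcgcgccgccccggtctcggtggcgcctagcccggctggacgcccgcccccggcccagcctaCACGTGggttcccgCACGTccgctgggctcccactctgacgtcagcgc
Pgk1: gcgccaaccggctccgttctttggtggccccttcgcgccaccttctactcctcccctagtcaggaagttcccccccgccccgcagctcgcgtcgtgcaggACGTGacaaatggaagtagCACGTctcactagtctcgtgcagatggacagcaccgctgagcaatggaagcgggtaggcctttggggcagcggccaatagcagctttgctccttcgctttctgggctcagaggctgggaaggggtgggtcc
Tpi1: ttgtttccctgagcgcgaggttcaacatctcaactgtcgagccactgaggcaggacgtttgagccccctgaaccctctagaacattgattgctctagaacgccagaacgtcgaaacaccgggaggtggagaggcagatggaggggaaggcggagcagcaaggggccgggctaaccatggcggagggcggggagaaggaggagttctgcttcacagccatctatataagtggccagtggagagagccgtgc
Aldoa: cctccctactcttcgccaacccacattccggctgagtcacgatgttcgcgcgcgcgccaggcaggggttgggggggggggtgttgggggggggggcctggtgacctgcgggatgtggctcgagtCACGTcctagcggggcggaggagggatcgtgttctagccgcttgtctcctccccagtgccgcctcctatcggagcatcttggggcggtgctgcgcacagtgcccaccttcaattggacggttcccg

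In these sequences ACGTG was found on either strand at 5 positions for Ldha, 2 for Pgk1, 1 for Aldoa and 0 for Tpi1. The other window of Ldha held 0 matches. Of the other windows of Aldoa 1 held 0, and 1, which overlaps the window shown, held the same match again and no further one. The matches in the Ldha window shown overlap in part, since it holds 2 copies of CACGTG, an E-box bound by MYC, and each of these reads as ACGTG on both strands. Over all windows of a gene, each taken from 250 bases before to 50 bases after a start and searched on both strands, 7 of the 10 genes held ACGTG (Slc2a1, Hk1, Hk2, Aldoa, Pgk1, Pkm and Ldha), against 21.8% of the 27025 genes with windows. CACGTG was found for 1 of the 10 genes, Ldha, against 8.09%, and GGGCGG, the GC box, for 9 of 10, against 38.2%. A gene with more windows has more room for a match, and Hk1, Aldoa, Eno1, Pkm and Ldha had more than 1. Hk1 and Pkm held ACGTG only in their second window, and Hk1 only after the start. The background took in genes whether expressed or not. Over single windows, 19.6% of 32851 held ACGTG. The matches are of letters and say nothing of whether a factor binds there.

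Summed over the 10 genes, replicates 1 and 2 had 1632 and 1195 CPM in Ctrl early LPre-B and 692 and 631 in Ctrl sPre-B libraries. For cKO they had 1343 and 1253 CPM in early LPre-B and 443 and 440 in sPre-B cells. The sum was thus high in both early LPre-B groups, whose libraries overlapped, lower in Ctrl sPre-B cells and lowest in cKO sPre-B libraries. In bulk RNA, fewer cells of a type and less RNA per cell cannot be told apart. In Ctrl early LPre-B cells, replicate 1 was above replicate 2 for 10 of the 10 genes, with a median ratio of 1.35, while in the other groups the number was 7, 6 and 4 of 10 and the median ratio 1.11, 1.08 and 0.971. The 2 Ctrl early LPre-B libraries also differed in Y-linked counts, and the part of sex in this gap was not tested.

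**Figure D1:**
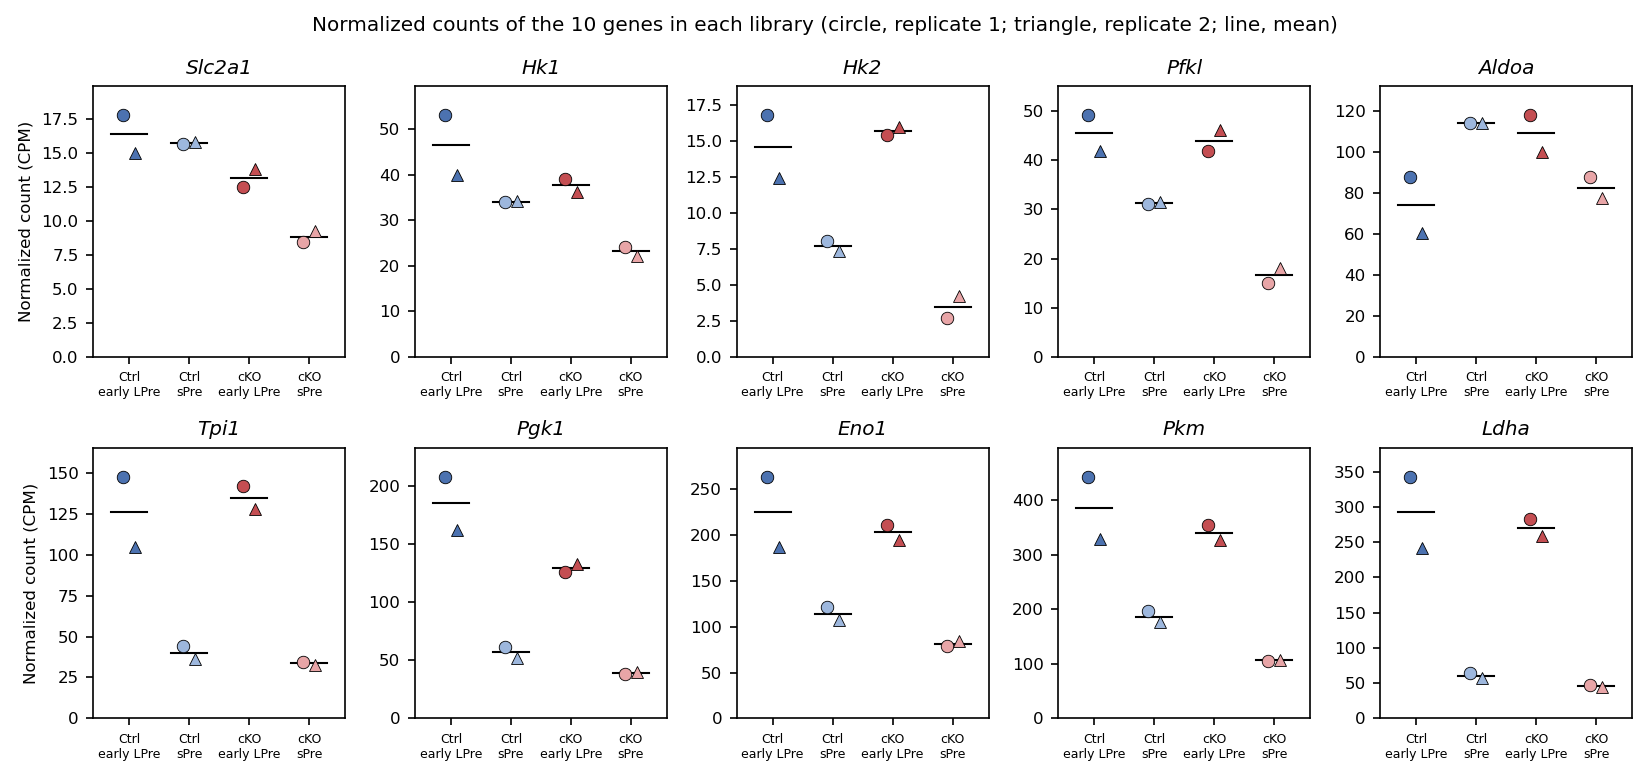
Normalized count (CPM, linear axis from 0) of each of the 10 genes by group, with a circle for replicate 1, a triangle for replicate 2 and a line for the mean of both. For Tpi1, Pgk1, Eno1, Pkm and Ldha both early LPre-B groups sit high and both sPre-B groups low, whereas Aldoa is lowest in Ctrl early LPre-B replicate 2 (60.5 CPM) and highest in cKO early LPre-B replicate 1 (118 CPM).

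Between the early LPre-B and the sPre-B stage in Ctrl mice, 8 of the 10 genes fell (Hk1, Hk2, Pfkl, Tpi1, Pgk1, Eno1, Pkm and Ldha), Aldoa rose, and Slc2a1 did not pass the test. Without Ctrl early LPre-B replicate 1 the number that fell was 5. Over the 17700 genes tested, 31.1% were lower and 29.1% higher in this comparison, by the quasi-likelihood test of edgeR at an adjusted P below 0.05. The median Log2FC of the 10 genes was -0.95, against 0.02 for all genes. In cKO mice 9 of the 10 fell, against a background of 31.1% lower, and 0 rose, against 31.6% higher, with a median of -1.54 against 0.05. Aldoa did not pass in cKO, but did under some alternatives, given with its values.

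Between genotypes, 2 of the 10 genes passed the test in early LPre-B cells. Aldoa was higher in cKO, against a background of 14.5% higher, and Pgk1 was lower, against 16.9% lower, and the median Log2FC was -0.13, against -0.06 for all genes. With 1 library left out the number higher was 0 without Ctrl replicate 2 or cKO replicate 1 of this stage, and the number lower was 0 without Ctrl replicate 1 or either cKO library of this stage and 2 without Ctrl replicate 2. In sPre-B cells, 7 of the 10 were lower in cKO (Slc2a1, Hk1, Hk2, Pfkl, Pgk1, Eno1 and Pkm), against a background of 14.9% lower. None was higher, against 19.8% higher, and the other 3 genes also had a negative Log2FC. Of these, Aldoa and Ldha passed as lower with the replicate block, DESeq2, no filter on low counts and only the 4 libraries compared. The call of Eno1 was lost with the counts of Eno1b added. The median was -0.55, against 0.01 for all genes. Both cKO sPre-B libraries lay below both Ctrl sPre-B libraries for 10 of the 10 genes, as they did for 34.3% of all genes tested. The 4 comparisons share libraries (each group enters 2 of them), so that their values are not independent of each other.

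**Figure D2:**
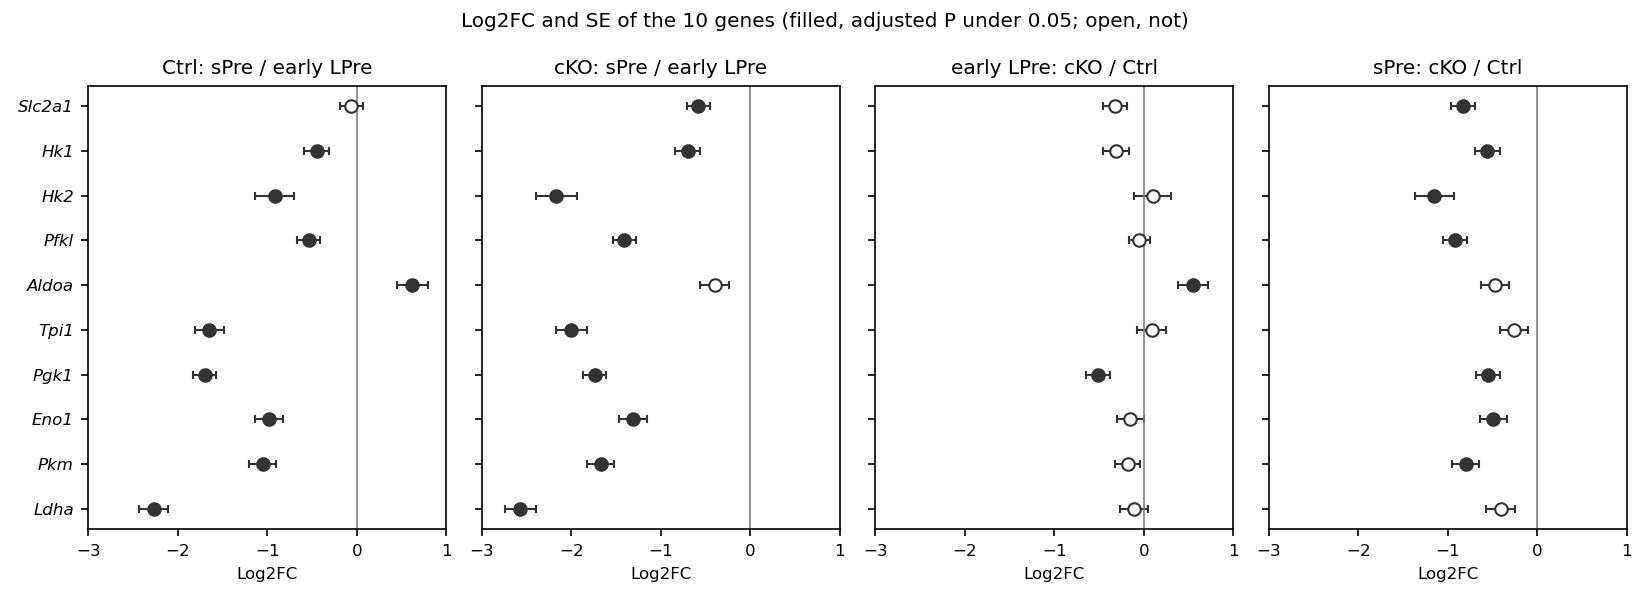
Log2FC (x axis, log2 scale) with SE of the 10 genes in the 4 comparisons, in the order of the steps from uptake to lactate, from the edgeR fit of all 8 libraries. Filled points have an adjusted P under 0.05. They lie left of 0 for 8 genes in the Ctrl transition, 9 in the cKO transition and 7 in cKO against Ctrl sPre-B cells.

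Slc2a1 (Entrez 20525, chromosome 4, 119108745 to 119137330 of mm10) encodes GLUT1, a glucose transporter of the cell membrane. In replicates 1 and 2 it had 17.8 and 15.0 CPM in Ctrl early LPre-B libraries, 15.7 and 15.8 in Ctrl sPre-B libraries, 12.5 and 13.8 in cKO early LPre-B cells and 8.43 and 9.24 in cKO sPre-B libraries. The Ctrl groups overlapped, both cKO groups lay below both Ctrl groups, and cKO sPre-B cells were lowest. With stage it had a Log2FC of -0.06 (SE 0.13, adjusted P = 0.712) in Ctrl, with a 95% interval from -0.36 to 0.24, and fell 1.49-fold in cKO (Log2FC -0.58, SE 0.13, adjusted P = 0.00485). In sPre-B cells it was 1.78-fold lower in cKO than in Ctrl (Log2FC -0.83, SE 0.13, adjusted P = 0.00192), and in early LPre-B cells the Log2FC was -0.32 (SE 0.13, adjusted P = 0.101). An antisense gene, Gm12868, shares 105 exonic bases with Slc2a1, and since strand was not used in the counting, reads from them cannot be told apart.

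The hexokinases phosphorylate glucose and so trap it in the cell. Hk1 (Entrez 15275, chromosome 10, 62268855 to 62379920), the broadly expressed form, had 53.1 and 39.9 CPM in Ctrl early LPre-B, 33.9 and 34.2 in Ctrl sPre-B, 39.0 and 36.3 in cKO early LPre-B and 24.1 and 22.2 in cKO sPre-B libraries. The 4 groups of libraries did not overlap. It fell 1.37-fold with stage in Ctrl (Log2FC -0.45, SE 0.14, adjusted P = 0.0184) and 1.63-fold in cKO (Log2FC -0.70, SE 0.14, adjusted P = 0.00197). Hk1 was 1.47-fold lower in cKO than in Ctrl sPre-B cells (Log2FC -0.56, SE 0.14, adjusted P = 0.0137). The Ctrl stage call was lost without Ctrl early LPre-B replicate 1, which moved the Log2FC to -0.17, and without either Ctrl sPre-B library, and the sPre-B genotype call without replicate 2 of either sPre-B group. The antisense gene Hk1os shares 157 exonic bases with Hk1.

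Hk2 (Entrez 15277, chromosome 6, 82725025 to 82774454), the form linked to proliferating cells, had the largest difference between genotypes among the 10 genes. It had 16.8 and 12.4 CPM in Ctrl early LPre-B, 8.07 and 7.38 in Ctrl sPre-B, 15.4 in replicate 1 and a mean of 15.7 ± 0.455 (SD, n = 2) in cKO early LPre-B and 2.73 and 4.21 in cKO sPre-B libraries. Early LPre-B libraries of both genotypes overlapped, and cKO sPre-B libraries lay below Ctrl sPre-B libraries. Hk2 fell 1.89-fold with stage in Ctrl (Log2FC -0.92, SE 0.22, adjusted P = 0.00583) and 4.50-fold in cKO (Log2FC -2.17, SE 0.23, adjusted P = 5.52e-05). In sPre-B cells it was 2.22-fold lower in cKO (Log2FC -1.15, SE 0.22, adjusted P = 0.00467), over a range from -1.50 to -0.87 with 1 library left out. Without Ctrl early LPre-B replicate 1 the Ctrl stage call was lost, at a Log2FC of -0.63.

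Pfkl (Entrez 18641, chromosome 10, 77986947 to 78009807) encodes the liver-type subunit of phosphofructokinase, which catalyses the committed step of glycolysis. It had 49.2 and 41.9 CPM in Ctrl early LPre-B, 31.1 and 31.6 in Ctrl sPre-B, 41.9 and 46.1 in cKO early LPre-B and 15.0 and 18.1 in cKO sPre-B libraries. As for Hk2, the early LPre-B groups overlapped and cKO sPre-B cells were lowest. The fall with stage was 1.45-fold in Ctrl (Log2FC -0.54, SE 0.13, adjusted P = 0.00533) and 2.65-fold in cKO (Log2FC -1.41, SE 0.13, adjusted P = 2.61e-05). The level was 1.89-fold lower in cKO than in Ctrl sPre-B cells (Log2FC -0.92, SE 0.13, adjusted P = 0.000932), while in early LPre-B cells the Log2FC was -0.05 (SE 0.12), with an interval from -0.33 to 0.23. The Ctrl stage call of Pfkl was lost without Ctrl early LPre-B replicate 1 (Log2FC -0.36).

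Aldoa (Entrez 11674, chromosome 7, 126795234 to 126800994), which encodes the aldolase that splits fructose 1,6-bisphosphate, went the other way in Ctrl cells. Replicates 1 and 2 had 87.9 and 60.5 CPM in Ctrl early LPre-B, 114 and 114 in Ctrl sPre-B, 118 and 100 in cKO early LPre-B and 87.9 and 77.3 in cKO sPre-B libraries. Ctrl early LPre-B cells, where most of the other genes were highest, thus had the lowest mean, although their libraries overlapped those of cKO sPre-B cells. Aldoa rose 1.54-fold with stage in Ctrl (Log2FC 0.62, SE 0.17, adjusted P = 0.0106), and had a Log2FC of -0.40 in cKO (SE 0.16, adjusted P = 0.0605). The latter passed with the likelihood-ratio test, DESeq2, no filter on low counts, either replicate block, only the 4 libraries compared, and either Ctrl early LPre-B library or both second Ctrl libraries left out, and over all alternatives its adjusted P was 0.0146 to 0.265. In early LPre-B cells it was 1.47-fold higher in cKO (Log2FC 0.55, SE 0.17, adjusted P = 0.0336), and in sPre-B cells the Log2FC was -0.47 (SE 0.16, adjusted P = 0.0575, interval from -0.84 to -0.09), with an adjusted P of 0.0115 to 0.225 over the alternatives. The early LPre-B call was lost without Ctrl early LPre-B replicate 2 (Log2FC 0.37) and without cKO early LPre-B replicate 1. The Ctrl stage call of Aldoa was lost with both second Ctrl libraries left out (Log2FC 0.45). Fam57b, on the other strand, shares 25 exonic bases with Aldoa.

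Tpi1 (Entrez 21991, chromosome 6, 124810586 to 124814158) encodes triose phosphate isomerase, which interconverts the products of aldolase. It had 148 and 105 CPM in Ctrl early LPre-B, 44.2 and 36.3 in Ctrl sPre-B, 142 and 128 in cKO early LPre-B and 34.7 and 32.7 in cKO sPre-B libraries. The levels separated far more by stage than by genotype. Tpi1 fell 3.14-fold with stage in Ctrl (Log2FC -1.65, SE 0.16, adjusted P = 4.18e-05) and 3.99-fold in cKO (SE 0.17 on the log2 scale, adjusted P = 1.62e-05). The sPre-B libraries of cKO lay below those of Ctrl, but the Log2FC of -0.26 (SE 0.16, adjusted P = 0.247) had an interval from -0.62 to 0.11. This Log2FC was -0.39 to -0.13 with 1 library left out and -0.43 to -0.25 over the other alternatives. Spsb2, on the other strand, shares 34 exonic bases with Tpi1.

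Pgk1 (Entrez 18655, chromosome X, 106187100 to 106203699) encodes phosphoglycerate kinase, an ATP-forming step. Replicates 1 and 2 had 208 and 162 CPM in Ctrl early LPre-B, 61.7 and 52.2 in Ctrl sPre-B, 126 and 133 in cKO early LPre-B and 38.1 and 39.5 in cKO sPre-B libraries. The 4 groups did not overlap, and cKO lay below Ctrl at both stages. With stage it fell 3.25-fold in Ctrl (Log2FC -1.70, SE 0.13, adjusted P = 1.15e-05) and 3.34-fold in cKO (Log2FC -1.74, SE 0.13, adjusted P = 1.05e-05). Pgk1 was 1.43-fold lower in cKO in early LPre-B cells (Log2FC -0.51, SE 0.13, adjusted P = 0.0169) and 1.47-fold lower in sPre-B cells (Log2FC -0.55, SE 0.13, adjusted P = 0.0115). The difference in early LPre-B cells did not pass without Ctrl early LPre-B replicate 1 (Log2FC -0.29) or without either cKO early LPre-B library, nor did that in sPre-B cells without replicate 1 of either sPre-B group. The processed pseudogenes Gm5537 and Pgk1-rs7 match Pgk1 without a mismatch over 1252 and 1255 bases, so that reads could be split between them and the count of Pgk1 is uncertain to that extent.

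Eno1 (Entrez 13806, chromosome 4, 150236708 to 150248879), which encodes the main enolase outside muscle and neurons, had 264 and 187 CPM in Ctrl early LPre-B and 121 and 107 in Ctrl sPre-B libraries. It had 211 and 195 CPM in cKO early LPre-B and 79.3 and 84.0 in cKO sPre-B libraries. Early LPre-B libraries of the 2 genotypes overlapped and sPre-B libraries did not. Eno1 fell 1.97-fold with stage in Ctrl (Log2FC -0.98, SE 0.16, adjusted P = 0.000645) and 2.49-fold in cKO (Log2FC -1.31, SE 0.16, adjusted P = 0.000120). In sPre-B cells it was 1.40-fold lower in cKO (Log2FC -0.49, SE 0.15, adjusted P = 0.0393), a call that was lost in 6 of the 8 fits with 1 library left out (each sPre-B library and each cKO early LPre-B library) and with the counts of Eno1b added. Eno1b is 99.5% identical to Eno1 over 1736 bases, and its counts came to 23.4% of those of Eno1, so that reads may be split between them. The pseudogenes Gm4735 and Gm5855 are further near-identical copies. Eno1b fell with stage in both genotypes (Log2FC -1.06, SE 0.18, adjusted P = 0.00102 in Ctrl, and -1.33, SE 0.18, adjusted P = 0.000265 in cKO).

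Pkm (Entrez 18746, chromosome 9, 59656576 to 59679372), pyruvate kinase, was the most abundant of the 10 genes by CPM in 8 of 8 libraries. It had 444 and 329 CPM in Ctrl early LPre-B, 197 and 176 in Ctrl sPre-B, 355 and 327 in cKO early LPre-B and 106 and 108 in cKO sPre-B libraries. The genotypes overlapped in early LPre-B cells and lay apart in sPre-B cells. Pkm fell 2.07-fold with stage in Ctrl (Log2FC -1.05, SE 0.15, adjusted P = 0.000292) and 3.19-fold in cKO (Log2FC -1.67, SE 0.15, adjusted P = 2.32e-05), and was 1.75-fold lower in cKO than in Ctrl sPre-B cells (Log2FC -0.80, SE 0.15, adjusted P = 0.00344). Counts per gene do not separate the 2 splice forms of Pkm. Gm49759, on the same strand, shares 767 exonic bases with Pkm, and the pseudogene Gm6560 is a near-identical copy.

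Ldha (Entrez 16828, chromosome 7, 46842274 to 46855627) encodes the lactate dehydrogenase subunit that favours lactate formation. It had 343 and 241 CPM in Ctrl early LPre-B, 64.0 and 56.7 in Ctrl sPre-B, 283 and 258 in cKO early LPre-B and 46.7 and 44.1 in cKO sPre-B libraries. Of the 10 genes it fell most with stage in both genotypes, 4.84-fold in Ctrl (Log2FC -2.27, SE 0.16, adjusted P = 7.83e-06) and 5.95-fold in cKO (Log2FC -2.57, SE 0.17, adjusted P = 4.81e-06). In sPre-B cells the cKO libraries lay below the Ctrl libraries, with a Log2FC of -0.41 (SE 0.16, adjusted P = 0.0753) and an interval from -0.77 to -0.05, and over the alternatives the adjusted P was 0.0138 to 0.232. The pseudogenes Gm5452 and Gm9247 are near-identical copies of parts of Ldha.

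The test of whether the genotype effect differed between stages was passed by Pfkl and Aldoa, whose effect was in both cases the more negative one in sPre-B cells, against a background of 1.60% of genes in this direction and 2.64% in the other. The difference was -0.87 for Pfkl (SE 0.18, adjusted P = 0.0343) and -1.02 for Aldoa (SE 0.23, adjusted P = 0.0485). Hk2 had a larger difference of -1.25 with a larger error (SE 0.31, adjusted P = 0.0586). It passed with the likelihood-ratio test, DESeq2, no filter on low counts and the replicate block within genotype, and without cKO sPre-B replicate 2, and over all alternatives its adjusted P was 0.00123 to 0.209. The difference was negative for 10 of the 10 genes, with a median of -0.43 against 0.07 for all genes. For Pgk1 it was -0.04 (SE 0.18, adjusted P = 0.934), with an interval from -0.46 to 0.38. The call of Pfkl was lost in 6 and that of Aldoa in 7 of the 8 fits with 1 library left out. It remained for Pfkl without Ctrl early LPre-B replicate 1 or cKO sPre-B replicate 2, and for Aldoa without Ctrl early LPre-B replicate 1.

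Per kilobase of exon, which allows levels of different genes to be set side by side, the 10 genes spanned a wide range. In Ctrl early LPre-B cells Hk2 had 2.60 ± 0.544 CPM per kb (SD, n = 2), Slc2a1 5.03 ± 0.607, Hk1 9.58 ± 1.92 and Pfkl 12.2 ± 1.40. In the same cells Aldoa had 28.9 ± 7.54 CPM per kb, Tpi1 71.7 ± 16.9, Eno1 88.6 ± 21.5, Pgk1 101 ± 17.6, Pkm 149 ± 31.2 and Ldha 154 ± 38.1. Tpi1 and Eno1, Eno1 and Pgk1, and Pkm and Ldha differed by no more than the larger SD of the pair. In cKO sPre-B cells the levels ran from 0.619 ± 0.186 for Hk2 to 41.2 ± 0.711 for Pkm, with Ldha at 24.0 ± 0.972 CPM per kb below Aldoa (32.2 ± 2.93) and Eno1 (32.1 ± 1.32). The remaining steps, taken by Gpi1, Gapdh and Pgam1, had 76.2 ± 13.2, 166 ± 26.7 and 70.6 ± 15.0 CPM per kb in Ctrl early LPre-B and 47.1 ± 1.78, 32.6 ± 0.271 and 32.3 ± 1.41 in Ctrl sPre-B cells.

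**Figure D3:**
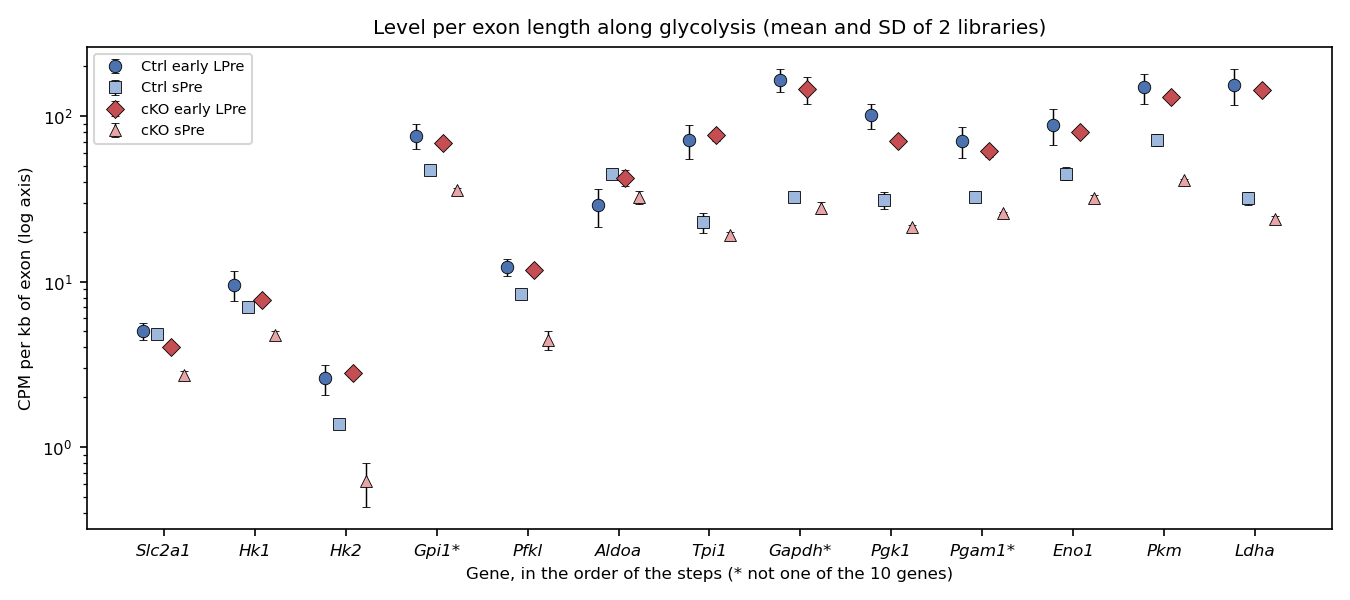
Level per exon length (CPM per kb, log axis, mean and SD of 2 libraries) of Slc2a1 and of the enzymes in the order of their steps, with 3 enzymes outside the 10 genes marked by an asterisk. The early LPre-B groups (circles and diamonds) lie above the sPre-B groups (squares and triangles) at each step but Slc2a1 and Aldoa, and the triangles of cKO sPre-B cells are lowest at each step but Aldoa.

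Within families of isozymes, shares were computed per exon length in each library. Hk1 made up 70.7 to 83.1% of hexokinase RNA, and Hk2 made up 20.7 to 27.0% in early LPre-B libraries, 14.4 and 15.7% in Ctrl sPre-B and 8.15 and 12.5% in cKO sPre-B libraries. The share of Hk3, a form of blood cells, was 1.22 to 2.43% in early LPre-B and 8.08 to 10.8% in sPre-B libraries, and the Log2FC of its level with stage was 1.85 in Ctrl (SE 0.27, adjusted P = 0.000407) and 1.20 in cKO (SE 0.26, adjusted P = 0.00384). Of the 9 neutrophil and monocyte markers 6 also rose with stage in Ctrl and 7 in cKO, and their part in the level of Hk3 was not tested.

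Phosphofructokinase RNA came from 3 genes. The share of Pfkl was 42.4 to 43.6% in Ctrl libraries, 35.8 and 39.0% in cKO early LPre-B and 25.7 and 29.7% in cKO sPre-B libraries, and that of Pfkp, the platelet form, was 34.4 to 41.6%, 40.1 and 40.9%, and 53.1 and 55.6%. Pfkp itself did not pass the test between genotypes in sPre-B cells (Log2FC 0.15, SE 0.12, adjusted P = 0.344), and Pfkm, the muscle form, had a Log2FC of -0.15 (SE 0.12, adjusted P = 0.367). The shift of shares in cKO sPre-B cells thus went with the lower level of Pfkl.

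Among the glucose transporters, Slc2a1 made up 29.6 and 33.0% in Ctrl early LPre-B, 24.8 and 25.3% in Ctrl sPre-B, 22.0 and 24.9% in cKO early LPre-B and 14.3 and 17.4% in cKO sPre-B libraries. Slc2a3, which encodes GLUT3, fell with stage in both genotypes (Log2FC -1.09, SE 0.23, adjusted P = 0.00351 in Ctrl and -0.92, SE 0.23, adjusted P = 0.00751 in cKO). Slc2a6, a transporter of lysosomes, rose with stage, with a Log2FC of 2.11 in Ctrl (SE 0.22, adjusted P = 5.49e-05) and 2.37 in cKO (SE 0.22, adjusted P = 2.91e-05). Slc2a8, an intracellular transporter, rose with stage in Ctrl (Log2FC 0.59, SE 0.12, adjusted P = 0.00253) and was lower in cKO than in Ctrl sPre-B cells (Log2FC -0.38, SE 0.12, adjusted P = 0.0364). Summed per kb, the 4 transporters had 15.5 to 19.6 CPM in the 8 libraries.

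Pyruvate kinase and lactate dehydrogenase RNA came nearly wholly from 1 gene each. Pkm held 99.8% or more of pyruvate kinase RNA and Ldha 97.5 to 99.6% of lactate dehydrogenase RNA. Eno1 held 66.9 to 74.6% of enolase RNA, Eno1b 20.7 to 24.9%, and Eno3, the muscle form, 1.54 to 3.27% in early LPre-B and 5.80 to 10.1% in sPre-B libraries.

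**Figure D4:**
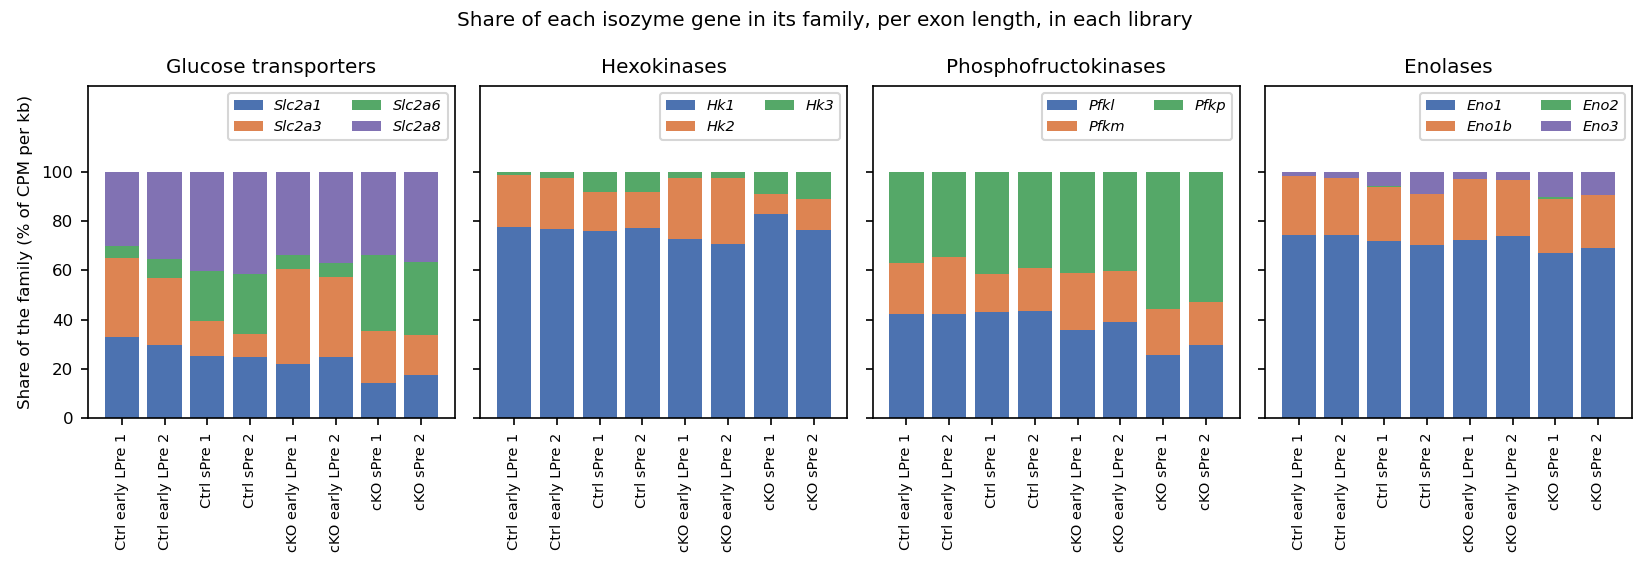
Share of each gene in its family (percent of the family's CPM per kb of exon) in each of the 8 libraries, for glucose transporters, hexokinases, phosphofructokinases and enolases. Pfkl gives way to Pfkp in cKO sPre-B libraries (25.7 and 29.7% Pfkl), and the share of Hk2 is lowest there (8.15 and 12.5%).

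Genes around these steps were taken from 7 lists with 81 genes, of which 78 were in the table and 68 were tested. With stage 23 of the 68 rose in Ctrl (33.8%, against 29.1% of all genes tested) and 27 fell (39.7%, against 31.1%). In cKO 22 rose (32.4%, against 31.6%) and 29 fell (42.6%, against 31.1%). Between genotypes 8 were higher (11.8%, against 14.5%) and 16 lower (23.5%, against 16.9%) in cKO early LPre-B cells. In cKO sPre-B cells 10 were higher (14.7%, against 19.8%) and 13 lower (19.1%, against 14.9%). The counts of the single lists below are to be read against the same shares over all genes.

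Among the 18 tested isozymes and other steps, 7 rose and 6 fell with stage in Ctrl. Gapdh, whose step forms NADH, fell from 277 and 220 CPM to 49.1 and 48.5 in Ctrl (Log2FC -2.35, SE 0.16, adjusted P = 5.57e-06) and from 246 and 188 to 44.0 and 39.4 in cKO (Log2FC -2.38, SE 0.16, adjusted P = 5.37e-06). Pgam1, phosphoglycerate mutase, fell with stage in both genotypes (Log2FC -1.13 and -1.24, SE 0.14 each, adjusted P = 0.000140 and 8.36e-05). So did Pfkm (Log2FC -0.97 and -1.27, SE 0.12 each, adjusted P = 0.000164 and 3.62e-05). Gpi1, glucose phosphate isomerase, fell with stage (Log2FC -0.69, SE 0.12, adjusted P = 0.00118 in Ctrl and -0.94, SE 0.12, adjusted P = 0.000193 in cKO) and was lower in cKO than in Ctrl sPre-B cells (Log2FC -0.41, SE 0.12, adjusted P = 0.0311). In early LPre-B cells 1 of the 18 genes, Eno3, passed the test between genotypes, at a Log2FC of 0.58 (SE 0.18, adjusted P = 0.0410).

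Of the 14 tested regulators of flux, 4 rose and 5 fell with stage in Ctrl, and 5 rose and 6 fell in cKO. Txnip, which restrains glucose uptake, rose from 136 and 129 CPM to 584 and 605 in Ctrl (Log2FC 2.17, SE 0.16, adjusted P = 1.01e-05) and from 83.2 and 91.0 to 549 and 384 in cKO (Log2FC 2.42, SE 0.17, adjusted P = 6.26e-06). The pyruvate dehydrogenase kinases, which hold pyruvate back from the mitochondrial oxidation, moved apart with stage. In Ctrl cells Pdk2 rose (Log2FC 1.92, SE 0.14, adjusted P = 7.17e-06), whereas Pdk3 fell (Log2FC -1.61, SE 0.14, adjusted P = 2.14e-05), and in cKO cells their Log2FC was 1.61 (adjusted P = 1.78e-05) and -1.99 (adjusted P = 7.76e-06).

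Between genotypes 1 of these 14 regulators was higher and 5 were lower in cKO early LPre-B cells, and 2 were higher and 5 lower in cKO sPre-B libraries. Pdk1 (Log2FC -0.83, SE 0.13, adjusted P = 0.00185), Pdk3 (Log2FC -0.83, SE 0.14, adjusted P = 0.00251) and Pdk2 (Log2FC -0.74, SE 0.13, adjusted P = 0.00319) were among those lower in cKO sPre-B libraries. Pfkfb2, which makes and degrades the activator fructose 2,6-bisphosphate, was higher in cKO early LPre-B cells (Log2FC 0.79, SE 0.12, adjusted P = 0.00212), where Txnip (Log2FC -0.60, SE 0.16, adjusted P = 0.0207) and Pdhb, a subunit of pyruvate dehydrogenase (Log2FC -0.42, SE 0.11, adjusted P = 0.0214), were lower.

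Transport of lactate and pyruvate was represented by 7 tested genes, of which 2 rose and 5 fell with stage in Ctrl. In cKO 0 rose and 4 fell, and between genotypes 2 were higher in early LPre-B and 1 in sPre-B cells, with 0 lower. Slc16a1, which encodes the lactate carrier MCT1, fell from 572 and 495 to 207 and 147 CPM in Ctrl (Log2FC -1.59, SE 0.20, adjusted P = 0.000159) and from 370 and 417 to 122 and 166 in cKO (Log2FC -1.45, SE 0.20, adjusted P = 0.000264). The carrier's partners Emb and Bsg fell with stage too, Emb with a Log2FC of -2.37 in Ctrl (SE 0.25, adjusted P = 6.31e-05) and -3.61 in cKO (SE 0.26, adjusted P = 7.76e-06), and Bsg of -0.66 (SE 0.11, adjusted P = 0.00104) and -0.69 (SE 0.11, adjusted P = 0.000799). Slc16a7, which encodes MCT2, was higher in cKO at both stages (Log2FC 1.15, SE 0.26, adjusted P = 0.0109 in early LPre-B and 3.99-fold, SE 0.27 on the log2 scale, adjusted P = 0.000928 in sPre-B cells), at 2.90 to 5.54 CPM. Emb was higher in cKO early LPre-B cells (Log2FC 1.08, SE 0.23, adjusted P = 0.00874). Slc16a3, the lactate exporter MCT4, had 1.37 to 2.99 CPM and rose with stage in Ctrl (Log2FC 0.81, SE 0.31, adjusted P = 0.0482).

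Of the 7 genes of the pentose phosphate pathway, which branches off after hexokinase and supplies NADPH and ribose, 4 fell and 1 rose with stage in Ctrl. In cKO early LPre-B cells 3 were lower and 0 higher, and in cKO sPre-B cells 2 were lower and 1 higher. Tkt, transketolase, fell from 400 and 281 to 112 and 99.7 CPM in Ctrl (Log2FC -1.69, SE 0.17, adjusted P = 4.37e-05) and had a Log2FC of -1.85 in cKO (SE 0.17, adjusted P = 2.75e-05). Rpia, ribose phosphate isomerase, had 76.6 and 62.6 CPM in Ctrl early LPre-B, 53.8 and 46.6 in Ctrl sPre-B, 48.2 and 50.7 in cKO early LPre-B and 81.0 and 78.7 in cKO sPre-B libraries. It was thus lower in cKO in early LPre-B cells (Log2FC -0.50, SE 0.12, adjusted P = 0.0124) and higher in sPre-B cells (Log2FC 0.67, SE 0.12, adjusted P = 0.00282), and the difference of these effects was 1.16 (SE 0.16, adjusted P = 0.0117). Taldo1, transaldolase, was lower in cKO at both stages (Log2FC -0.70, SE 0.11, adjusted P = 0.00174 and -0.49, SE 0.11, adjusted P = 0.00786), and Pgd in sPre-B cells (Log2FC -0.44, SE 0.14, adjusted P = 0.0343).

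Of the 4 tested genes of gluconeogenesis, 3 fell with stage in Ctrl and 4 in cKO. Between genotypes 1 was higher and 1 lower in early LPre-B cells, and 1 higher and 0 lower in sPre-B cells. Pck2, the mitochondrial phosphoenolpyruvate carboxykinase, had 100 and 85.8 CPM in Ctrl early LPre-B, 28.3 and 27.9 in Ctrl sPre-B, 130 and 158 in cKO early LPre-B and 47.6 and 61.5 in cKO sPre-B libraries. It fell with stage in Ctrl (Log2FC -1.73, SE 0.15, adjusted P = 1.90e-05) and in cKO (Log2FC -1.40, SE 0.15, adjusted P = 5.69e-05), and was higher in cKO at both stages (Log2FC 0.63, SE 0.14, adjusted P = 0.0116 and 0.96, SE 0.15, adjusted P = 0.00152). Pcx, pyruvate carboxylase, fell with stage in both genotypes (Log2FC -1.90 and -1.83, SE 0.20 each, adjusted P = 6.30e-05 and 7.63e-05). Fbp1, fructose bisphosphatase, had 1.08 and 0.577 CPM in Ctrl early LPre-B libraries and at most 0.165 in the other groups.

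The hypoxia response outside glycolysis (16 tested genes) moved both ways, with 9 genes higher and 3 lower with stage in Ctrl and 8 higher and 4 lower in cKO. Between genotypes 3 were higher and 7 lower in cKO early LPre-B cells, and 4 higher and 4 lower in cKO sPre-B cells. Vegfa, the angiogenic factor, fell from 39.1 and 37.3 to 7.31 and 6.67 CPM in Ctrl (Log2FC -2.45, SE 0.12, adjusted P = 1.51e-06) and from 94.1 and 80.2 to 27.4 and 24.0 in cKO (Log2FC -1.76, SE 0.12, adjusted P = 5.25e-06). It was higher in cKO at both stages (Log2FC 1.19, SE 0.11, adjusted P = 0.000188 and 1.88, SE 0.12, adjusted P = 3.36e-05). Egln1, an oxygen-sensing prolyl hydroxylase, fell with stage in both genotypes (Log2FC -1.46, SE 0.11, adjusted P = 8.03e-06 and -0.97, SE 0.10, adjusted P = 6.94e-05), and Egln3, another one, was lower in cKO than in Ctrl sPre-B cells (Log2FC -2.17, SE 0.35, adjusted P = 0.00187). Bnip3 and Bnip3l, mitophagy receptors, and Ndrg1, named after their values were seen, were lower in cKO at both stages. In sPre-B cells their Log2FC was -0.92 (SE 0.17, adjusted P = 0.00404), -0.70 (SE 0.13, adjusted P = 0.00346) and -1.51 (SE 0.30, adjusted P = 0.00575), and in early LPre-B cells -0.89 (SE 0.17, adjusted P = 0.00578), -0.56 (SE 0.13, adjusted P = 0.0109) and -1.12 (SE 0.30, adjusted P = 0.0232). Adm, the peptide adrenomedullin, had 8.82 and 13.0 CPM in cKO sPre-B, 1.32 and 0.766 in Ctrl sPre-B and at most 0.0385 in early LPre-B libraries. Hif1a, named after its values were seen, had 82.7 to 128 CPM, with a Log2FC of 0.06 with stage in Ctrl (SE 0.11, adjusted P = 0.639) and -0.07 between genotypes in sPre-B cells (SE 0.11, adjusted P = 0.685). It was lower in cKO than in Ctrl early LPre-B cells (Log2FC -0.39, SE 0.11, adjusted P = 0.0294) and rose with stage in cKO (Log2FC 0.39, SE 0.11, adjusted P = 0.0150).

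**Figure D5:**
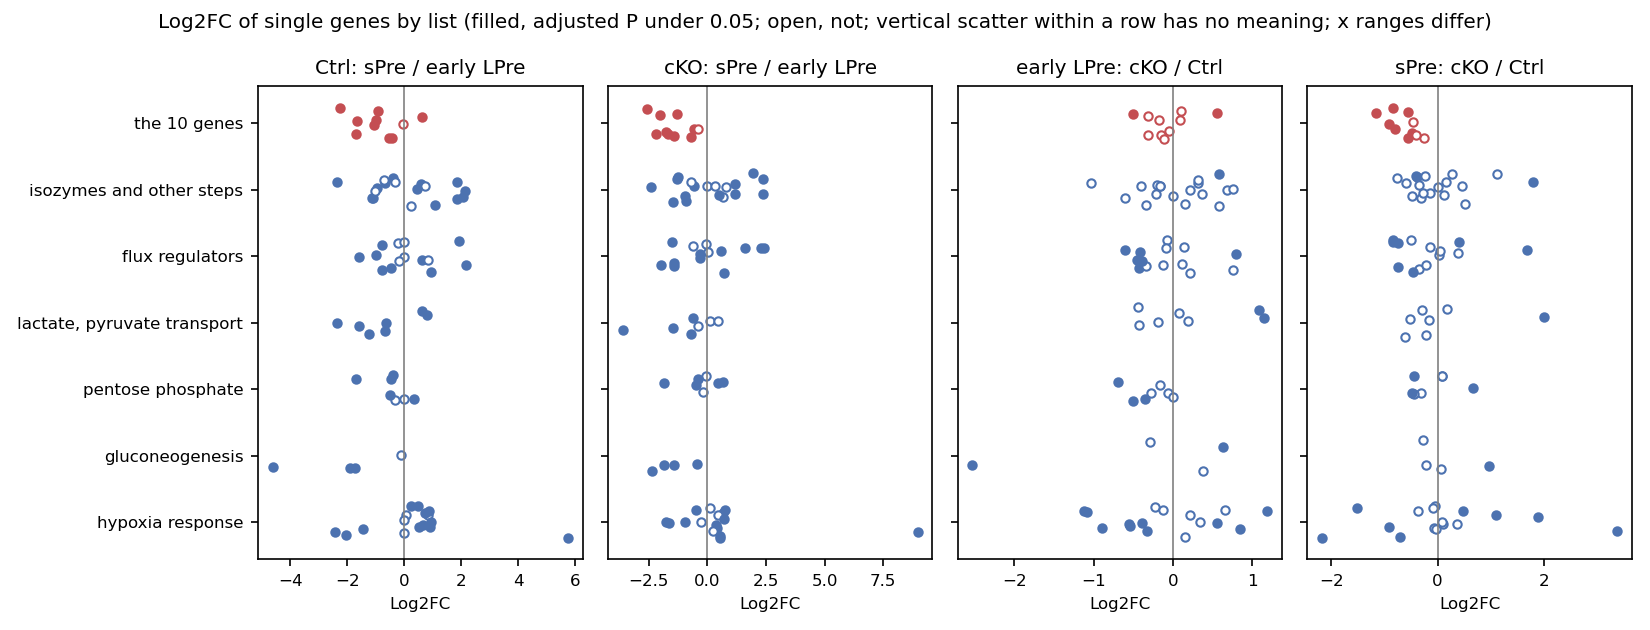
Log2FC (x axis, log2 scale, with a range of its own in each panel) of each tested gene of the 10 genes and of 6 lists around them, in the 4 comparisons. Filled points have an adjusted P under 0.05. In cKO against Ctrl sPre-B cells the 10 genes lie between -1.15 and -0.26, while the other lists spread to both sides of 0.

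Across the 8 libraries, the log2 level of each gene was set against the mean of the other 9 as a description, since the libraries share stage and genotype. Pearson's r was 0.998 for Pkm, 0.993 for Eno1, 0.969 for Hk2, 0.965 for Pgk1, 0.960 for Pfkl, 0.949 for Ldha, 0.943 for Tpi1 and 0.923 for Hk1. Slc2a1 followed the others less closely (0.706), and r was 0.004 for Aldoa. Among 4550 other genes with a mean of at least 50 CPM, those most like the mean of the 10 included Rcc2 (0.996), Ints14, Prdx1 and Gnas (0.994 each). Rcc2, a regulator of chromosome condensation, had 712 and 601 CPM in Ctrl early LPre-B, 453 and 417 in Ctrl sPre-B, 609 and 605 in cKO early LPre-B and 343 and 332 in cKO sPre-B cells, the same order of groups as for Pkm. Prdx1, a peroxiredoxin, had 200 and 159, 78.9 and 71.8, 146 and 151, and 44.1 and 44.0 CPM in the same order of groups.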

How the data were processed

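RNA of sorted bone marrow pre-B cells was sequenced after depletion of ribosomal RNA. The authors used Trim Galore for trimming and HISAT2 for alignment (mm10), and deposited raw counts per gene from featureCounts, made without strand and with replicates kept apart. Versions and annotation are not given in the sources used here. Exon lengths and overlaps came from GENCODE release M21 and upstream sequences from RefSeq. Of 27179 genes listed, 1904 had no symbol.

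The 8 libraries were fitted together with edgeR 4.0.16 in R 4.3.3 (TMM factors 0.862 to 1.09, filterByExpr, group means, quasi-likelihood test), which left 17700 genes, over which P values were adjusted by Benjamini-Hochberg (threshold 0.05). The script was tested on simulated data for cKO against Ctrl sPre-B cells. Of 99 genes changed by 1 on the log2 scale 48 were recovered (48.5%), and of 95 changed by 2, 92 (96.8%). None was called in the wrong direction, and 8 calls were false. A gene that did not pass may therefore still differ. The contrasts were sPre- against early LPre-B in each genotype, cKO against Ctrl at each stage, and the difference of the latter. A level of 3 counts, the floor, came to 0.0187 to 0.0438 CPM, and counting error alone is covered by it.

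The 10 genes and the lists were chosen with earlier results of these data known. Besides the 10 genes, up to 3 genes per list and contrast with the lowest P, isozymes, glucose and lactate transporters, Upf1 and the 5 genes most like the 10 were named, of which a few are not reported here. Alternatives were DESeq2 1.42.0, a likelihood-ratio test, median-ratio factors, no filter, no immunoglobulin genes, fewer libraries, replicate blocks and, added after the data were seen, Eno1b counts joined to Eno1.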

Additional observations from a re-analysis of the deposited data

Results flagged for a closer look

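The difference between cKO and Ctrl itself differed between stages for 2 of the 10 genes and 1 of the 68 pathway genes tested, by the interaction term of edgeR's quasi-likelihood test, with the effect in early LPre-B cells subtracted from that in sPre-B cells. Over all genes tested 2.64% passed with a higher and 1.60% with a lower effect in sPre-B cells, so that 1 of 68 (1.47%) higher is no more than that share. For Pfkl it was -0.87 on the log2 scale (SE 0.18, adjusted P = 0.0343), between effects of -0.05 in early LPre-B and -0.92 in sPre-B cells. For Aldoa it was -1.02 (SE 0.23, adjusted P = 0.0485), between 0.55 and -0.47. For Rpia it was 1.16 (SE 0.16, adjusted P = 0.0117), between -0.50 and 0.67. Leaving out 1 library gave -1.06 to -0.74 for Pfkl and -1.39 to -0.87 for Aldoa, with adjusted P up to 0.143 and 0.152 over the alternatives. Groups of 2 libraries were too small for a search for single libraries that stand apart.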

How the results depend on the processing

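Of the Log2FC values of the 10 genes under the alternatives, 782 kept direction and side of the threshold, 38 lost and 36 gained the call, and 14 changed sign, none of them a called value. Without both second Ctrl libraries, the number of the 10 genes that rose in the Ctrl transition was 0 (Aldoa 0.45, adjusted P = 0.0694) and the number higher in cKO early LPre-B cells 0, with 2 lower, 0 passed the test of the difference between stages, and in early LPre-B cells Hk2 turned to -0.04 and Tpi1 to -0.08. With only the 4 libraries compared, Pfkl turned to 0.02 there. The difference between stages was passed, with a lower effect in sPre-B cells, by 4 of the 10 genes with DESeq2 and by 4 with the replicate block within genotype (Hk2 and Pkm added), and by 3 with the likelihood-ratio test and 3 without a filter (Hk2 added), against 2. Among the other pathway genes, it was passed in the higher direction by 2 with the likelihood-ratio test, 3 with DESeq2, 2 without a filter, 2 with the replicate block and 3 with the block within genotype, against 1, and in the lower direction by 2, 3, 2 and 2 with the likelihood-ratio test, DESeq2, no filter and the block within genotype, against 0. The cause was not tested.

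With 1 library left out, the number of the 10 genes that fell in the Ctrl transition was 5 to 8 (5 without Ctrl early LPre-B replicate 1), that lower in cKO sPre-B cells 5 to 9, that higher in cKO early LPre-B cells 0 to 1, that lower there 0 to 2 and that with a lower effect in sPre-B cells 0 to 3. Signs changed for Slc2a1 in the Ctrl transition (-0.11 to 0.12), for Pgk1 in the difference between stages (-0.30 to 0.07) and, in early LPre-B cells, for Hk2 (-0.04 to 0.37), Pfkl (-0.12 to 0.11), Tpi1 (-0.08 to 0.39), Eno1 (-0.33 to 0.16), Pkm (-0.33 to 0.09) and Ldha (-0.29 to 0.20). Over the other alternatives 6 to 10 genes were lower in cKO sPre-B cells, 6 with Eno1b joined to Eno1.

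The labels give libraries of different groups the same replicate numbers but name no shared animal, and in Ctrl both replicate 2 libraries also had Y-linked counts. Their deviations correlated at 0.395, 0.254, 0.155 and 0.0858 in the 4 comparisons. With the replicate block 9 of the 10 genes were lower in cKO sPre-B cells, Aldoa and Ldha added, and 10 fell in the cKO transition. The block within genotype was not run between genotypes, with which it is confounded.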
